A study of Mus musculus with 10 samples.

Results

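The thioredoxin system of GTN muscle was followed through 6 genes, *Txnrd1*, *Txnrd2*, *Txnrd3*, *Txn1*, *Txn2* and *Txnip*, of 19505 genes that the arrays name. They were chosen by gene symbol, and each was read by 1 probe set of the 22206 on the array. Thioredoxins are small proteins that reduce disulfides in other proteins, and thioredoxin reductases are selenium-containing enzymes that return the oxidized thioredoxin to its reduced form with electrons from NADPH. The cytosol and the mitochondrion hold separate copies of the system. *Txn1* and *Txnrd1* encode the thioredoxin and the reductase of the cytosol and nucleus, and *Txn2* and *Txnrd2* encode those of the mitochondrion. *Txnrd3* encodes a reductase that carries a glutaredoxin domain and is best known from testis, and *Txnip* encodes an alpha-arrestin that binds reduced thioredoxin and limits glucose uptake. In muscle the mitochondrial branch supplies peroxiredoxins that remove hydrogen peroxide made near the respiratory chain.

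Arrays were made from gastrocnemius (GTN) of male mice aged 60 days on standard chow, with 5 ctrl and 5 mTKO arrays labelled as biological replicates. Both groups were on a C57BL/6N background and carried floxed *Txnrd2* alleles (Txnrd2 fl/fl). The mTKO mice also carried 1 copy of ACTA1-Cre, in which the human *ACTA1* promoter drives Cre recombinase in the muscle fibers of both types but not in their stem cells, and ctrl mice carried no Cre. No array was made from mice with Cre alone, so the presence of Cre and the loss of *Txnrd2* cannot be told apart here. Whole muscle also holds vessels, nerve, connective tissue and blood cells that keep the gene, and in such tissue fewer cells of a type and less RNA per cell cannot be told apart. The removed exons are not named in the sources used here, so whether the *Txnrd2* probe set reads the deleted stretch is not known.

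Values are log2 signals, in which a difference of 1 stands for a doubling, and every difference is mTKO minus ctrl. The median signal of an array lay between 6.06 and 6.14, no 2 arrays were identical, and Pearson's r between arrays ran from 0.986 to 0.990. Over all probe sets, 0.0045% passed limma's adjusted p under 0.05 and 6.36% an unadjusted p under 0.05. The median difference of all probe sets was 0.00. The 9 myofibre markers, *Acta1*, *Ckm* and *Ttn* among them, had a summed signal of 22.14 to 22.20 in ctrl and of 22.11 to 22.15 in mTKO, which places the tissue as skeletal muscle in both groups.

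The start regions of *Txnrd1* and *Txnip* are shown because the first holds the core letters of the element through which NRF2 is known to act and the second those through which glucose-sensing factors are known to act. Both are RefSeq windows of 300 bases on GRCm38.p6, plus strand, with 250 bases before and 50 after an annotated start. The *Txnrd1* window, 1 of 3 for this gene, lies at chr10:82858956-82859255, and its capitals mark a match to TGACNNNGC on the minus strand, whose leftmost base lies 92 bases before the start. The *Txnip* window lies at chr3:96557707-96558006, and its capitals mark a pair of CACGNG copies that begin 85 and 74 bases before the start.
Txnrd1: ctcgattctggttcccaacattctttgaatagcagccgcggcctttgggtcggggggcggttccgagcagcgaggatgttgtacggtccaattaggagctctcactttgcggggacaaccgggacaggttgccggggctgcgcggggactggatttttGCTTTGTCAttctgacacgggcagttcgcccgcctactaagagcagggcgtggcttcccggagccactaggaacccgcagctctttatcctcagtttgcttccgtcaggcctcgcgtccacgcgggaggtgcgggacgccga
Txnip: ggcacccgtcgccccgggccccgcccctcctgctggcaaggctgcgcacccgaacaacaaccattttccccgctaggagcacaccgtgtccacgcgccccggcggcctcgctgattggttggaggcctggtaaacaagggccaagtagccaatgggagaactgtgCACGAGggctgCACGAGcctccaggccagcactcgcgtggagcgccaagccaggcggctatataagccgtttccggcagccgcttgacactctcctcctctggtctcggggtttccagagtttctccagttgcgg
A CACGNG pair with 5 bases between the copies, searched on both strands, has the layout of the carbohydrate response element in the *Txnip* window. Other forms of that element were not searched, so how rare the pair is depends on this choice of letters. The pair was found in 16 of 32851 windows (0.0487%), and among the 8 windows of the members only in that of *Txnip*. The window of *Arrdc4*, an alpha-arrestin relative of *Txnip*, was also searched and held 0 such pairs. The letters TGACNNNGC, the core of the antioxidant response element bound by NRF2, were found on either strand in 12.4% of all windows. Among the 8 windows of the members they were found in 1, which is 1 of the 3 of *Txnrd1*, a gene known as an NRF2 target. This is close to the share of all windows, so the match does not mark the members out. These are matches of letters and not measured binding.

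Of the reductases, *Txnrd2* was lower in mTKO GTN, by about the amount of a halving. Its signal was 8.82, 9.08, 8.67, 8.47 and 8.65 in ctrl replicates 1 to 5. In mTKO replicates 1 to 5 it was 7.51, 7.54, 7.96, 7.79 and 7.90. The groups did not overlap, with a gap of 0.51 between the lowest ctrl and the highest mTKO value. The ctrl mean was 8.74 ± 0.23 and the mTKO mean 7.74 ± 0.21 (SD over 5 arrays), a difference of -1.00 with a standard error of 0.16 and a 95% confidence interval of -1.34 to -0.65. The two-sided exact permutation test gave p = 0.00794, the smallest value that 5 arrays against 5 allow. By limma's p the gene ranked 3 of 22206, with an adjusted p of 0.118 by limma, so it was not called over all probe sets. With trend and robust eBayes limma's adjusted p was 0.0453, and with 2 filters on dim probe sets it was 0.0322 and 0.0335. *Txnrd2* was the only one of the 6 members whose genotypes were fully apart, and of all probe sets 0.527% had their whole mTKO group below the whole ctrl group.

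The cytosolic reductase *Txnrd1* was not separated between genotypes. Its signal was 13.31, 13.14, 12.88, 12.90 and 13.04 in ctrl replicates 1 to 5 and 13.13, 13.10, 13.24, 12.96 and 13.33 in mTKO replicates 1 to 5. The groups overlapped over nearly their whole range, with means of 13.05 ± 0.18 and 13.15 ± 0.14 (SD, n = 5 each). The difference was 0.10 with a 95% confidence interval of -0.22 to 0.41 (adjusted p = 0.949 by limma, exact permutation p = 0.349). The interval holds both lower and higher signals of *Txnrd1* in mTKO.

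*Txnrd3* gave signals below the median of its array in every sample. Its values were 5.87, 6.05, 5.70, 5.77 and 5.36 in ctrl replicates 1 to 5 and 5.62, 6.03, 5.98, 5.21 and 5.92 in mTKO replicates 1 to 5. Both groups spread over a similar range around means of 5.75 ± 0.25 and 5.75 ± 0.34 (SD, n = 5 each). The difference was 0.00, with a 95% confidence interval of -0.40 to 0.40 (adjusted p = 0.998 by limma, exact permutation p = 1). At signals this low a probe set carries little information on change.

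The 2 thioredoxins overlapped between genotypes. *Txn1*, the cytosolic form, gave 13.62, 13.52, 13.97, 13.53 and 13.60 in ctrl replicates 1 to 5 and 13.70, 13.85, 13.49, 13.66 and 13.98 in mTKO replicates 1 to 5. In 4 of 5 mTKO arrays it lay above the ctrl mean, and the difference of 0.09 (95% confidence interval -0.24 to 0.42) was within the spread of the arrays (adjusted p = 0.965 by limma, exact permutation p = 0.452). *Txn2*, the substrate of the enzyme that *Txnrd2* encodes, gave 13.47, 13.51, 13.66, 13.66 and 13.43 in ctrl replicates 1 to 5. In mTKO replicates 1 to 5 it gave 13.45, 13.96, 13.54, 13.04 and 13.47. The mTKO arrays held both the highest and the lowest value of *Txn2*, with an SD of 0.33 against 0.11 in ctrl, a gap in spread that was not tested. Its difference was -0.05 with a 95% confidence interval of -0.41 to 0.31 (adjusted p = 0.980 by limma, exact permutation p = 0.722), and it turned to 0.06 without mTKO replicate 4.

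*Txnip*, the inhibitor of thioredoxin, had the largest difference of the members after *Txnrd2*, and it rested on part of the mTKO arrays. Its signal was 17.03, 17.00, 17.14, 17.15 and 17.47 in ctrl replicates 1 to 5. In mTKO replicates 1 to 5 it was 16.25, 16.31, 17.41, 17.08 and 16.92. Replicates 1 and 2 lay well below all other arrays, replicates 3 and 4 lay within the ctrl range and replicate 5 just under it. The means were 17.16 ± 0.19 and 16.79 ± 0.50 (SD, n = 5 each), a difference of -0.36 with a 95% confidence interval of -0.82 to 0.09 (adjusted p = 0.840 by limma, exact permutation p = 0.190). Leaving out 1 array at a time moved the difference between -0.52 and -0.23, with -0.23 reached without mTKO replicate 1. Replicates 1 and 2 were also the mTKO arrays with the lowest *Txnrd2* signal, and whether the 2 genes vary together among mTKO mice was not tested.

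**Figure D1:**
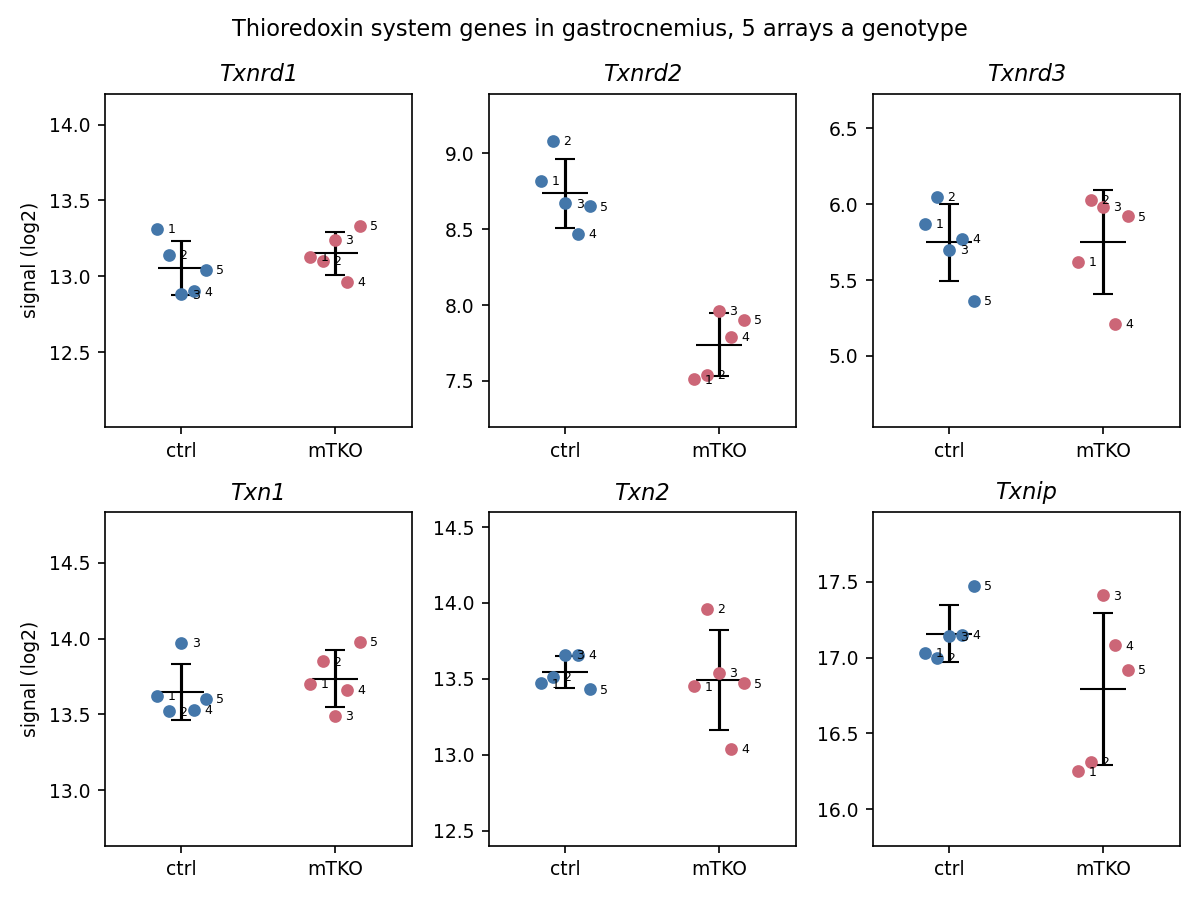
Log2 signal of the 6 members in each array, with ctrl in blue and mTKO in red, the replicate number beside each point, and the mean and SD in black. Each panel has its own axis of the same length, and *Txnrd2* is the member whose mTKO arrays (7.51 to 7.96) all lie below its ctrl arrays (8.47 to 9.08).

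Counted over the members, 0 of 6 passed limma's adjusted p under 0.05, where the background was 0.0045%. At an unadjusted p under 0.05 the count was 1 of 6, *Txnrd2*, against 6.36% of all probe sets. The methods' thresholds, an unadjusted P under 0.05 with a fold change above 2, took 0 of 6 members and 0.0585% of all probe sets. *Txnrd2* had a ctrl over mTKO ratio of 1.997, just short of that fold limit.

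*Txnrd2* was set against each of the other reductases, and *Txn2* against *Txn1*, within each array. A probe set's own brightness cancels in such a comparison of genotypes, so the size of the within-array value says nothing of which gene is more abundant. *Txnrd2* minus *Txnrd1* was -4.49 to -4.06 in ctrl and -5.62 to -5.17 in mTKO. The groups did not overlap, and the mitochondrial reductase shifted against the cytosolic one by -1.10 (standard error 0.12, 95% confidence interval -1.36 to -0.83). The two-sided exact permutation test gave p = 0.00794, and 0.0119 after Benjamini-Hochberg adjustment over the 3 pairs compared. *Txnrd2* is the gene removed in mTKO fibers and *Txnrd1* differed by only 0.10, so this shift mostly restates that of *Txnrd2*. It is not separate evidence on the compartments. *Txnrd2* minus *Txnrd3* was 2.70 to 3.29 in ctrl and 1.51 to 2.58 in mTKO, a shift of -1.00 (95% confidence interval -1.45 to -0.55, exact permutation p = 0.00794, adjusted 0.0119). With the *Txnrd3* signal below the array medians and its own difference at 0.00, this shift restates that of *Txnrd2* and adds no separate evidence. Among the mTKO arrays, replicate 4, where *Txnrd3* was lowest, came closest to the ctrl range.

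The thioredoxins gave no such shift. *Txn2* minus *Txn1* was -0.31 to 0.13 in ctrl and -0.62 to 0.11 in mTKO, with a shift of -0.14 (95% confidence interval -0.52 to 0.24, exact permutation p = 0.405, adjusted 0.405). Averaged by compartment, as a description, the mitochondrial pair *Txnrd2* and *Txn2* had a mean difference of -0.53 and the cytosolic pair *Txnrd1* and *Txn1* one of 0.09. The mitochondrial mean came from *Txnrd2*, since *Txn2* contributed -0.05.

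**Figure D2:**
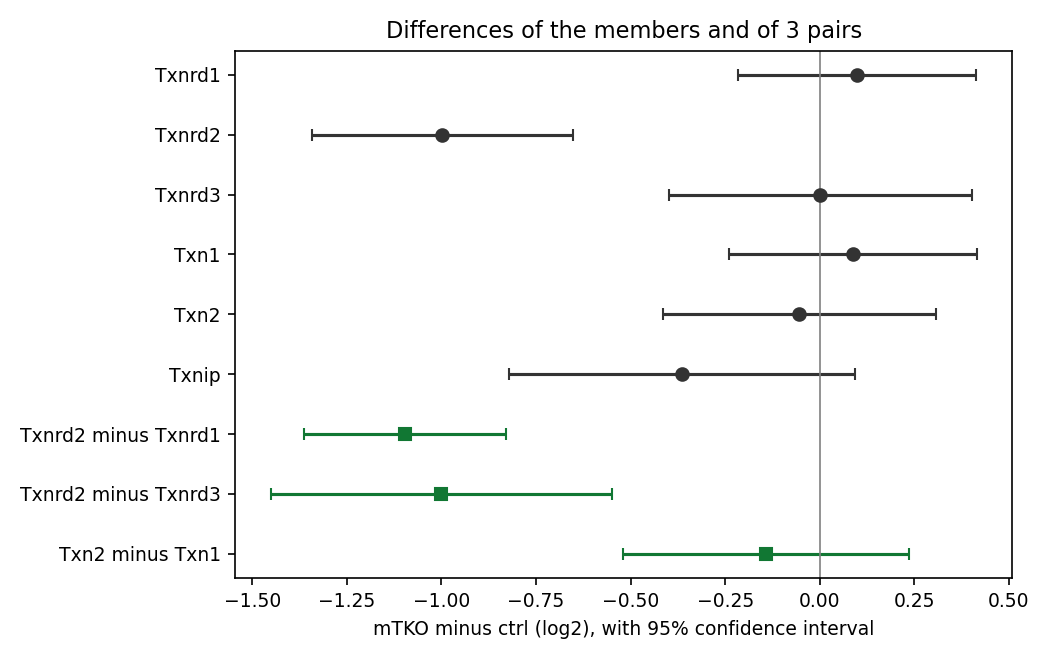
Difference between genotypes (mTKO minus ctrl, log2) with its 95% confidence interval for the 6 members (circles, limma) and for the 3 within-array pairs (squares). The intervals of *Txnrd2* (-1.34 to -0.65) and of both pairs that hold it lie below 0, and the others include 0.

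**Figure D3:**
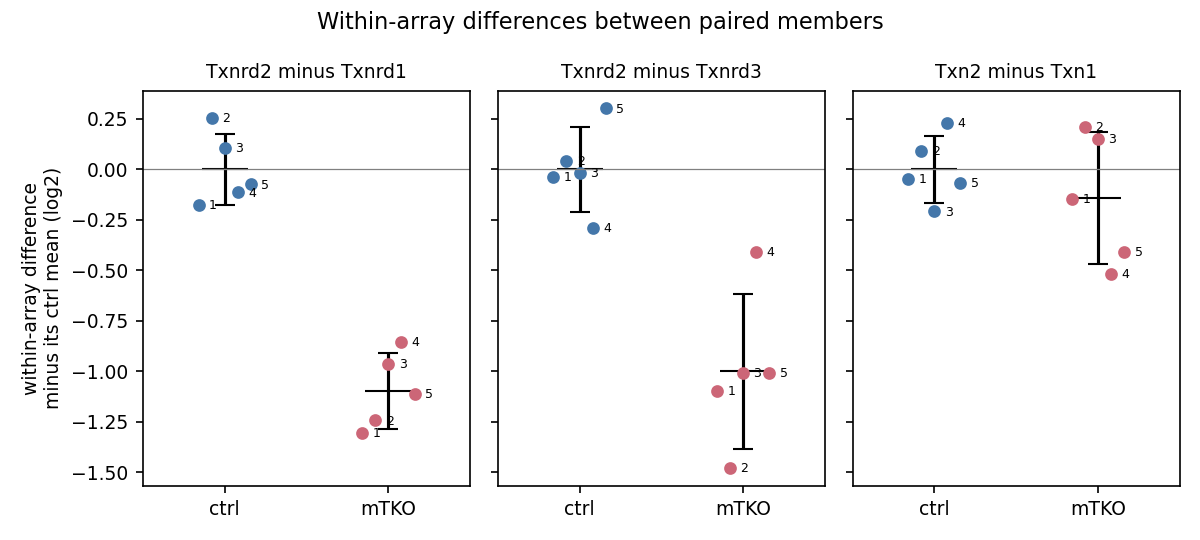
Within-array difference between 2 members in each array, on the log2 scale and set to 0 at the ctrl mean, with ctrl in blue, mTKO in red, replicate numbers beside the points, and mean and SD in black. The mTKO arrays lie apart from ctrl for both pairs with *Txnrd2* (shifts of -1.10 and -1.00) and overlap with ctrl for *Txn2* minus *Txn1* (-0.14).

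Around the members, 68 of 74 listed pathway genes were measured in 8 lists, and 0 passed limma's adjusted p under 0.05 in either direction. At an unadjusted p under 0.05 by limma, 3 were higher (*Gsr*, *Sqstm1* and *Txndc5*) and 4 lower (*Arrdc2*, *Mlxip*, *Msrb3* and *Taldo1*). This is 10.3% of the measured genes against 6.36% of all probe sets. The median difference was 0.03, beside 0.00 over all probe sets, with 37 positive differences, 30 negative and 1 of 0.00. *Prdx5*, *Rpl30*, *G6pdx* and *Tkt* were among those not analysed here.

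The clients that mitochondrial thioredoxin reduces were mixed. *Prdx3*, the mitochondrial peroxiredoxin that depends on it, had a difference of 0.08 (adjusted p = 0.971 by limma), and of the 4 genes measured 2 were positive and 2 negative. *Msrb3*, a methionine sulfoxide reductase of the endoplasmic reticulum and mitochondria, had the smallest p of them. It lay between 15.03 and 15.62 in ctrl and between 14.35 and 15.25 in mTKO, a difference of -0.41 that did not pass (adjusted p = 0.783 by limma). *Msra*, which repairs the other stereoisomer of oxidized methionine, had a difference of -0.26 (adjusted p = 0.850 by limma).

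The list of cytosolic and nuclear clients of thioredoxin 1 had 7 positive and 3 negative differences among 10 genes, with a median of 0.14. It also holds *Prdx4* (-0.07), whose product is a peroxiredoxin of the endoplasmic reticulum and not of the cytosol. *Prdx1* and *Srxn1* stand in the list of NRF2 targets as well, so these lists are not separate. *Rrm2*, a subunit of the ribonucleotide reductase that makes DNA precursors, had a difference of 0.34 on a probe set with signals near the array median. Without ctrl replicate 4 the difference of *Rrm2* was 0.19. *Srxn1*, the sulfiredoxin that restores overoxidized peroxiredoxins, had one of 0.37. *Map3k5*, the ASK1 kinase that thioredoxin binds and holds inactive, had one of 0.19. None of the 10 genes passed even an unadjusted p under 0.05 by limma.

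Of 20 other proteins with a thioredoxin fold, 12 were positive, 7 negative and 1 at 0.00, with a median of 0.04. *Txndc5*, a protein disulfide isomerase of the endoplasmic reticulum, was 9.92 to 10.24 in ctrl and 10.20 to 10.66 in mTKO. The groups overlapped at 1 mTKO array, and the difference of 0.32 did not pass (adjusted p = 0.783 by limma). *Tmx3*, a membrane-bound isomerase of the same organelle, had a difference of 0.27, and *Txndc11* one of -0.58 on a probe set with signals near the array median.

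The alpha-arrestin relatives of *Txnip* were all negative, 5 of 5, though 3 of them by 0.04 or less and with a sign that turned for *Arrdc4* when single arrays were left out. *Arrdc2* stood apart from the other relatives. Its signal was 9.55, 9.07, 8.17, 9.80 and 8.09 in ctrl replicates 1 to 5. In mTKO replicates 1 to 5 it was 6.50, 8.48, 8.14, 5.62 and 7.09. The groups overlapped between 8.09 and 8.48, and both spread widely, with SDs of 0.78 and 1.17. The difference was -1.77 with a standard error of 0.47, and it did not pass over all probe sets (unadjusted p = 0.00179, adjusted p = 0.588 by limma). Its lowest mTKO array was replicate 4, where *Txnip* lay within the ctrl range, and its next lowest was replicate 1, where *Txnip* was lowest. Whether *Arrdc2* and *Txnip* vary together was not tested.

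The factors that read glucose and act on the *Txnip* element printed above, *Mlxip* (MondoA), *Mlxipl* (ChREBP) and their shared partner *Mlx*, had differences of -0.39, -0.23 and -0.18. *Mlxip*, the form that prevails in muscle, was 12.19, 11.84, 11.94, 11.87 and 11.65 in ctrl replicates 1 to 5 and 11.48, 11.23, 11.73, 11.51 and 11.59 in mTKO replicates 1 to 5. Only mTKO replicate 3 reached above the lowest ctrl array, and that array was also the mTKO array with the highest *Txnip* signal. This rests on 1 array, and whether *Mlxip* and *Txnip* vary together was not tested. The difference of *Mlxip* did not pass over all probe sets (unadjusted p = 0.0232, adjusted p = 0.768 by limma).

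The machinery that inserts selenocysteine, the residue at the active site of all 3 reductases, was measured through 10 genes with 5 positive and 5 negative differences. Their median was -0.01, and the range was -0.19 for *Eefsec*, the elongation factor of selenocysteine, to 0.23 for *Secisbp2l*, a relative of the protein that binds the selenocysteine insertion element. *Pstk*, the kinase that prepares the transfer RNA, had a difference of -0.18. No gene of the list passed an unadjusted p under 0.05 by limma.

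The list of NRF2 targets, in which *Txnrd1* was not counted, had 12 positive and 5 negative differences among 17 genes and a median of 0.14. Of all probe sets 49.8% had a positive difference. The 17 genes include 2 regulators that are not counted here as targets of interest, *Nfe2l2*, which encodes NRF2 (0.17), and *Keap1*, which encodes its repressor (-0.02). *Gsr*, the glutathione reductase that carries out the parallel reaction in the glutathione system, was 10.70 to 11.18 in ctrl and 11.14 to 11.53 in mTKO. Its groups overlapped only at their edges, and the difference of 0.34 did not pass (adjusted p = 0.783 by limma). *Sqstm1*, the autophagy receptor p62, had a difference of 0.34. *Taldo1*, an enzyme of the pentose phosphate pathway, had one of -0.39, and both had an adjusted p of 0.783 by limma.

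**Figure D4:**
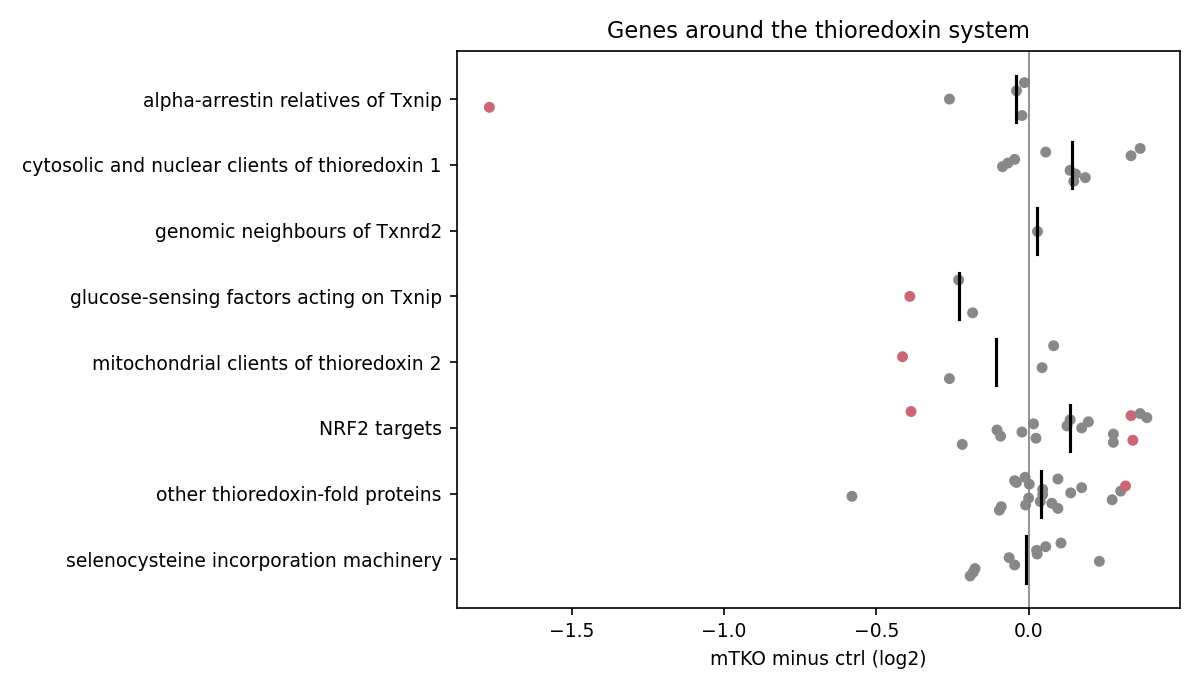
Difference between genotypes (mTKO minus ctrl, log2) of each measured pathway gene by list, with the median of a list as a black bar and genes at an unadjusted limma p under 0.05 in red. The 7 red points include *Arrdc2* at -1.77, and 0 genes passed the adjusted threshold.

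*Arvcf*, a catenin family gene, lies near *Txnrd2* on chromosome 16. Its signal lay between 7.75 and 8.23 in ctrl and between 7.47 and 8.35 in mTKO, a difference of 0.03 (adjusted p = 0.991 by limma). The 95% confidence interval of -0.38 to 0.43 lay wholly above that of *Txnrd2*.

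Markers of myofibres and of other cells in GTN were read beside these values, and 0 of 43 measured marker genes passed limma's adjusted p. At an unadjusted p under 0.05, 2 were higher and 5 lower, which is 16.3% of the 43 against 6.36% of all probe sets. The 43 include the 9 myofibre markers, of which 0 passed, so all that passed were markers of other cells and their share among those is higher. Of 4 smooth muscle markers all were negative, with a median of -0.37 and a summed signal of 13.06 to 13.87 in ctrl against 12.92 to 13.28 in mTKO. Of the adipocyte markers 3 of 3 measured were negative with a median of -0.46. *Lep* averaged 4.42, and *Plin1*, which gave the median, averaged 4.83 in ctrl and 4.37 in mTKO, both below the array median. *Adipoq*, the brightest of them, had a difference of -0.63 with a 95% confidence interval of -2.35 to 1.09. The summed adipocyte signal was 6.26 to 10.1 in ctrl and 5.71 to 9.56 in mTKO. Endothelial, fibroblast, macrophage and satellite cell lists had medians of 0.04, 0.00, -0.04 and 0.02, with members on both sides of 0. The endothelial differences ran from -0.40 for *Tie1* to 0.56 for *Cldn5*, and the macrophage ones from -0.54 for *Adgre1* to 0.44 for *Mrc1*. *Pax7*, which marks satellite cells, had a difference of 0.47 that did not pass (adjusted p = 0.759 by limma), at signals below the array median. Of the 5 satellite cell markers 3 were positive and 2 negative, with *Chodl* at -0.14. The summed signals of these 4 lists overlapped between genotypes. The 3 Schwann cell markers measured had a median of 0.05, and *Alas2*, the 1 erythroid marker measured, had a difference of -0.08. The part of these cells in the *Txnrd2* and *Txnip* differences was not tested.

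As a description, the genes whose signal ran most like that of *Txnrd2* over the 10 arrays were *Gadl1*, *Ak1*, *Npy1r*, *Limd1* and *Prima1*, with Pearson's r of 0.97, 0.93, 0.92, 0.91 and 0.91 among 9983 genes compared. The points share the contrast between genotypes, so part of each r is the difference of the groups. *Gadl1*, a decarboxylase expressed in muscle, was 9.44, 9.33, 9.34, 8.72 and 8.94 in ctrl replicates 1 to 5 and 7.90, 7.89, 8.24, 8.09 and 8.24 in mTKO replicates 1 to 5. It was lower in every mTKO array, with a difference of -1.08 and an adjusted p of 0.118 by limma, the same as that of *Txnrd2*. After the group means were taken out, r with *Txnrd2* was 0.80 for *Gadl1* and 0.59 for *Ak1*, an adenylate kinase of muscle. It was 0.56 for *Npy1r*, 0.83 for *Limd1* and 0.72 for *Prima1*. The genes were picked by r over these same arrays, which can raise these values too.

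For *Txnip* the most alike were *Ankrd17*, *Phip*, *Cyp2d13*, *Wasf2* and *Zfp39*, with r between 0.86 and 0.94 over the 10 arrays. Much of this likeness came from the 2 arrays with the lowest *Txnip* signal. Without the 2 arrays farthest from the median of *Txnip*, r was 0.25 for *Phip* and 0.21 for *Wasf2*, while *Cyp2d13* kept 0.79 and *Ankrd17* 0.74.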

How the data were processed

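Gene expression in GTN of 5 ctrl and 5 mTKO mice was measured on Affymetrix Clariom S mouse arrays. The deposited log2 signals were made by the authors with the SST-RMA algorithm (Affymetrix Expression Console 1.4). It is a form of RMA, which corrects background, normalizes between arrays and summarizes probes. Differences of dim genes can be compressed in array signals, and how far they were here was not tested. These log2 values were used without further normalization or filter. Groups and replicate numbers came from the sample labels. Platform symbols named 19572 of 22206 probe sets, and where a symbol had several the one with the highest mean was used.

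The comparison of genotypes used limma 3.58.1 under R 4.3.3 (lmFit, eBayes, Benjamini-Hochberg over all probe sets, threshold 0.05). Members and pairs also had two-sided exact permutation tests over all 252 assignments of 5 and 5 arrays. The steps were tested on simulated data. Named genes were the 6 members, *Arvcf*, up to 3 genes of smallest p in each pathway list, and the 5 most alike *Txnrd2* or *Txnip*. Cell type markers were named outside this rule, after their values were seen. Some items of the rule and lists are not reported here. The members and lists were chosen with earlier results of these data known. Alternatives were the methods' t-test, other eBayes settings, array weights, 3 normalizations, 2 filters on dim probe sets, other thresholds, averaged probe sets, a replicate block and leaving out each array. Promoter windows were read from RefSeq on GRCm38.p6, which named all 6 members. Figures were drawn with matplotlib 3.10.9.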

Additional observations from a re-analysis of the deposited data

Results flagged for a closer look

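Of 82 groups of 5 arrays examined for a single array far from the others, 2 had one, where chance alone gives about 1 in 20. *Txn1* was 13.97 in ctrl replicate 3, the highest of its group, with the nearest array at 13.62. *Srxn1*, the sulfiredoxin gene, was 8.55 in mTKO replicate 2, the highest of its group, with the nearest at 7.66. Neither gene had a difference between genotypes that passed limma's adjusted p.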

How the results depend on the processing

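The difference of *Txnrd2* kept its direction under 20 alternatives and was between -1.07 and -0.91 when single arrays were left out. At the same value of -0.998 its adjusted p from limma went from 0.118 to 0.0453 with trend and robust eBayes, to 0.0322 with probe sets whose mean is above the median of all values, and to 0.0335 with those above it in at least 5 arrays. The filters test fewer probe sets and leave out *Txnrd3*. Under these 3 settings, and at an unadjusted p, 1 member was called in place of 0, and 7 pathway genes were called at an unadjusted p in place of 0. *Gadl1* passed under the same 3 settings. Leaving out single arrays gave 0.05 to 0.16 for *Txnrd1*, 0.03 to 0.17 for *Txn1* and -0.52 to -0.23 for *Txnip*. It turned the sign of *Txnrd3* (-0.0955 to 0.1375), *Txn2* (-0.171 to 0.059), *Arvcf* (-0.046 to 0.174), *Arrdc4* (-0.153 to 0.0205) and *Phip* (-0.241 to 0.009), none of which passed the threshold. For the pairs it gave -1.16 to -1.03 (*Txnrd2* minus *Txnrd1*), -1.15 to -0.88 (*Txnrd2* minus *Txnrd3*) and -0.23 to -0.05 (*Txn2* minus *Txn1*). Of 638 values of 32 other named genes, 626 kept direction and side of the threshold.

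With the replicate block, both pairs with *Txnrd2* kept their shifts of -1.096 and -1.00, while the adjusted p was 0.0938, since 5 pairs allow no exact p under 0.0625 by sign flips. Same-numbered arrays showed little shared deviation (correlations of deviations -0.04 to 0.16), and 2 of 5 ctrl arrays correlated best with their own number. The labels state no pairing of the mice, and these correlations cannot exclude one that left little trace in the signals. The limma calls of members did not change with the block. Leaving out mTKO replicates 1 and 2 together was also run once, after their *Txnip* signal had been seen, and its values are not given because the arrays had been picked by that signal.

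The number of arrays limits the precision, as the confidence intervals show. Dim probe sets such as that of *Txnrd3* carry little information. The arrays read neither protein nor enzyme activity.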
